A study of Mus musculus with 21 samples.

Results

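The Ebf1 gene held 2632 of the 244659 nucleotides called as PTBP1 crosslink sites in B cells, 1.08% of the list (95% Wilson interval 1.04% to 1.12%). That interval takes sites as independent, though calls depend on neighbouring nucleotides, so it is too narrow. Of the 5 replicate lists, replicates 1, 2, 4 and 5 had shares of 1.56% to 2.35%, above the pooled share, and replicate 3 had 0.725%. The members were all sites of the pooled list between the RefSeq start and end of Ebf1, chr11:44618100-45008096 in GRCm38, a range of 389997 nt on the plus strand. Each site is a single nucleotide with a cDNA count, the number of distinct cDNA molecules that ended there, and the count's sign in the file gives the strand. All 2632 sites lay on the plus strand, the strand from which Ebf1 is transcribed, and together they held 4674 of 432167 cDNAs. The sites were taken by position only, but the gene was chosen with earlier results of these data known. The counts below, the rank of Ebf1 among genes included, are therefore descriptions of what that range holds. The nearest plus-strand site outside the range lay 92 nt before the start with 1 cDNA, and the first inside lay 554 nt after it with 3 cDNAs. At the other end, the last site inside lay 79 nt before the end with 1 cDNA, and the next plus-strand site lay 167743 nt beyond it.

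EBF1 is a transcription factor that, together with PAX5 and the E proteins, establishes and maintains the identity of the B lineage. PTBP1, the polypyrimidine tract-binding protein, binds pyrimidine-rich stretches of RNA and is known for repressing exons and for acting on polyadenylation and transcript stability. In iCLIP, UV light links protein to RNA, reverse transcription tends to stop at the link, and the cDNA ends mark the contact at single-nucleotide resolution.

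The sites came from splenic B cells of female C57BL/6 mice that had been stimulated ex vivo with LPS for 48 h, with 30000000 cells per immunoprecipitation, in 5 replicate libraries whose genotype is given as NA. Ebf1 RNA was measured in another population, light zone (LZ) and dark zone (DZ) germinal centre B cells sorted 7 days after immunisation with NP-KLH in alum, in 16 mRNA libraries. The groups were LZ cKO, LZ control, DZ cKO and DZ control, with 4 libraries each. The cKO mice were CD79acre/+Ptbp1fl/fl and the controls CD79a+/+Ptbp1fl/fl, all C57BL/6, so every mouse carried floxed Ptbp1 and only cKO mice carried the Cre allele of Cd79a, which acts in B-lineage cells. Each of 8 pools of 3 to 5 mice of 1 genotype and 1 sex gave an LZ and a DZ library. Sort days 1 and 2 were males and days 3 and 4 females, so day and sex overlap. The effects of the Cre allele and of PTBP1 loss cannot be told apart, and no immunoprecipitation from PTBP1-deficient cells was used here.

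The replicate lists differed in size, and replicate 3 stood apart. Replicates 1 to 5 held 17573, 28829, 6211, 45505 and 23100 sites in all, and 389, 678, 45, 709 and 527 of these lay in Ebf1. None of the Ebf1 sites in any replicate list was on the minus strand. The 45 sites of replicate 3 carried 46 cDNAs, against 507, 922, 1014 and 693 cDNAs in replicates 1, 2, 4 and 5. Results that depend on replicate 3 are therefore given with and without it. The labels do not say whether the 5 libraries came from separate animals, and the interval of the Ebf1 share leaves out differences between libraries.

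The sequence just before the RefSeq start is shown because it is the Ebf1 sequence with sites that could be read here. It covers chr11:44617850-44618099 on the plus strand of GRCm38.p6, from the RefSeq promoter table, and ends at the last base before the start. Capitals mark the 9 nucleotides called as crosslink sites, each with 1 cDNA.
Ebf1 upstream: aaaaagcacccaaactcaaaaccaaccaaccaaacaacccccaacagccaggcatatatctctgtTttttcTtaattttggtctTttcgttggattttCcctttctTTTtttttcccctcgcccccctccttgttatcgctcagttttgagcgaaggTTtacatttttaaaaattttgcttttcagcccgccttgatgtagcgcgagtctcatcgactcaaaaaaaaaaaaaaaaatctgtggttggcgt

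These 9 nucleotides were 8 T and 1 C, with no A and no G. Over the promoter windows of all genes, the 571 same-strand sites were 65.8% T, 17.9% C, 9.81% G and 6.48% A, so pyrimidines predominated there too. The stretches within 15 nt of the 9 Ebf1 sites were 74.9% pyrimidine on average. The full window of 300 nt, which runs 50 nt past the start, was 61.3% pyrimidine, against a median of 49.7% over 32851 windows, and 2.85% of windows were at or above the Ebf1 value. The longest pyrimidine run of the window, 31 nt at chr11:44618099-44618129, held 0 of the sites. None of the 9 sites was in a replicate list. A second RefSeq start of Ebf1 has its window at chr11:44619978-44620277, which was 55.7% pyrimidine and held 0 sites.

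Short pyrimidine motifs were counted in the first window, with overlapping matches counted. TCTT occurred 3 times on the sense strand and 0 times on the antisense strand, and 69.9% and 70.8% of all windows held it on those strands. CTTT occurred 5 and 2 times, and 73.0% and 73.9% of windows held it. TTCTCT (15% and 15.7% of windows) and CTCTCT (14.1% and 15.6%) had no match on either strand. TTTTTTTT gave 16 sense and 10 antisense matches, and 4.34% and 3.8% of windows held it. A run of T longer than the motif gives several of these matches. Most of the sense matches lay in the 31 nt pyrimidine run, which held 0 of the sites and lies almost wholly past the printed sequence. Runs of 8 T were thus uncommon among promoter windows, while most windows held TCTT and CTTT.

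The 1 kb before the RefSeq start, outside the range of the members, held 22 plus-strand sites with 31 cDNAs. Replicates 1 to 5 had 0, 9, 3, 0 and 2 called sites in that kilobase. A list without a call there does not show that its library had no cDNAs. Sites before the annotated start lie outside the gene as RefSeq gives it.

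Within the gene, the sites were concentrated in the first part of its length. The median site lay 94.3 kb from the start, 24.2% of the way along. With the gene split into 10 equal segments of 39.0 kb, segments 1 to 4 held 297, 731, 543 and 649 sites of the pooled list. Segments 5 to 10 held 128, 149, 22, 37, 29 and 47 sites. In density, segment 2 had 18.7 sites per kb and segment 7 had 0.564 sites per kb. The first 4 segments thus held 2220 sites (84.3%) and 4028 cDNAs (86.2%), and the last 4 held 135 sites (5.13%).

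Each replicate list also had most of its Ebf1 sites in the first 4 segments. The first 4 segments held 90.0%, 88.3%, 86.7%, 89.7% and 89.4% of the Ebf1 sites of replicates 1 to 5. The last 4 held 1.8%, 2.36%, 6.67%, 2.54% and 1.14%, and the value of replicate 3 rests on 3 sites. Replicate 3 further differed in having no site in segment 1, against 5.31% to 11.4% of the sites in the other lists. Median distances from the start were 88.6, 91.1, 94.2, 91.0 and 91.1 kb, a span shorter than a single segment. The replicate lists entered the pooled list, so their likeness to it is not independent, but they were called separately from one another. Over 39 bins of 10 kb, Pearson's r of the site counts was 0.895 to 0.957 between pairs of replicates 1, 2, 4 and 5, and 0.61 to 0.713 for pairs with replicate 3. These correlations are across bins of 1 gene that share its RNA level and base composition, and they carry no test.

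**Figure D1:**
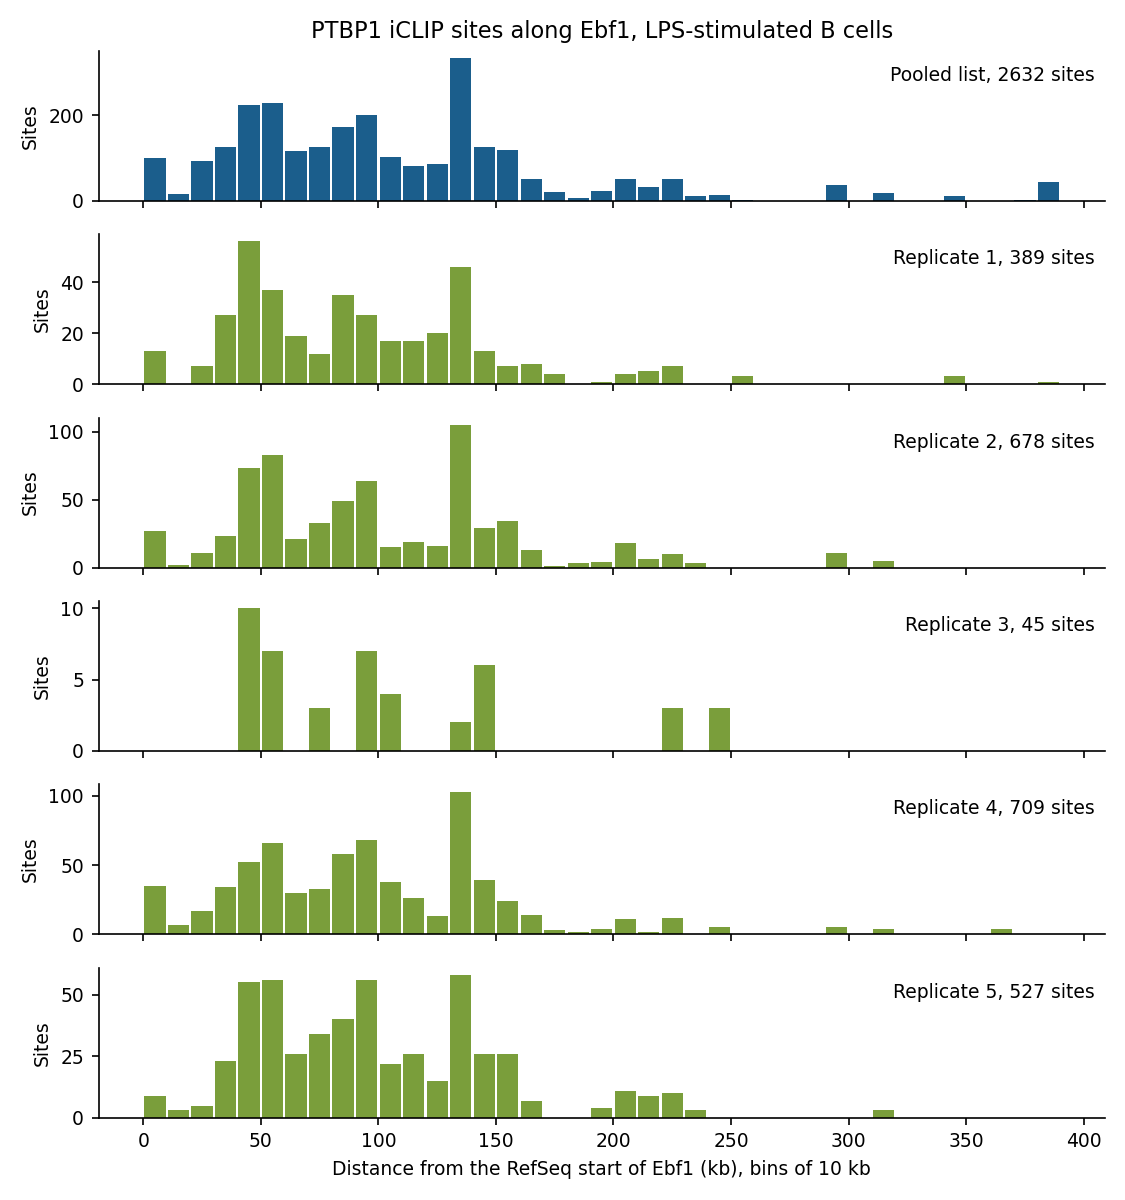
Number of PTBP1 sites per 10 kb bin (vertical axes, each panel with its own scale) against distance from the RefSeq start of Ebf1 in kb, for the pooled list and the 5 replicate lists. Bars are densest before 160 kb in every panel, the pooled maximum is 335 sites at 130 to 140 kb, and replicate 3 has 45 sites in all.

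The richest bin, 130 to 140 kb from the start, held 335 sites with 582 cDNAs in 36 clusters, 12.7% of the Ebf1 sites. In replicates 1 to 5 that bin had 46, 105, 2, 103 and 58 sites. It was the fullest bin in replicates 2, 4 and 5, whereas replicates 1 and 3 had more sites at 40 to 50 kb. Next came 50 to 60 kb with 230 sites, 40 to 50 kb with 224 sites and 90 to 100 kb with 200 sites. These bins hold separate groups of sites spread over the first 140 kb, not a single peak.

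The second part of the gene had long stretches with no call in the pooled list. In that list, 8 of the 39 bins were empty. The bin at 360 to 370 kb was among them, though replicate 4 had 4 called sites there. The longest interval between neighbouring sites was 36575 nt, 257.0 to 293.5 kb from the start, and the next was 34309 nt, 344.0 to 378.3 kb from the start. Sites reappeared at the 3' end, where the last 20 kb held 47 sites and 67 cDNAs. From 370 kb to the end, replicates 1 to 5 had 1, 0, 0, 0 and 0 sites, and 8 of the 47 pooled sites had a replicate site within 15 nt, so the 3' sites rest mostly on the pooled calls. Exon and intron boundaries were not used here, and the positions are given as distances only.

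Sites occurred in tight groups. The median interval between neighbouring sites was 3 nt, 57.4% of sites had another on the adjacent nucleotide, and 99.0% had one within 15 nt. A call depends on cDNAs at neighbouring positions, with a neighbourhood of 15 nt per the file headers, so this grouping is partly built into the calling. Joining sites at most 15 nt apart gave 372 clusters with a median of 5 sites, 7 cDNAs and 15 nt of width, and 26 clusters were single sites. The widest cluster was 130 nt. The clusters covered 8153 nt, 2.09% of the gene, and 67.7% of the covered positions were not sites themselves. Some 147 clusters had at least 10 cDNAs and 38 had at least 30.

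The 10 clusters with most cDNAs held 709 cDNAs, 15.2% of those in the gene, and all began between 46.33 and 133.8 kb from the start. They held 16.8%, 23.4%, 30.4%, 21.0% and 18.2% of the Ebf1 cDNAs of replicates 1 to 5. Every one of the 10 had a site in replicates 1, 2, 4 and 5, and 3 of the 10 had one in replicate 3. The 10 were picked by their pooled count, which comes from these same libraries, so a site in the larger lists is partly built into that choice. The Ebf1 signal was spread over many clusters.

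The leading cluster, chr11:44703762-44703848, had 36 sites and 106 cDNAs. Replicates 1 to 5 had 17, 31, 0, 31 and 23 cDNAs at called sites in it or within 15 nt. Its highest site had 12 cDNAs, so the count was spread over the 87 nt and not stacked on 1 nucleotide. The second, chr11:44712332-44712407, had 79 cDNAs, and it had 12, 21, 7, 15 and 18 in replicates 1 to 5. This was the most even of the leading clusters across libraries and held the largest count of replicate 3 among them. Another cluster followed close behind it, chr11:44712992-44713069, with 74 cDNAs in the pooled list and 3, 27, 0, 24 and 13 in the replicates.

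Between these in rank stood chr11:44664434-44664513, with 77 cDNAs, and 16, 14, 0, 25 and 18 in replicates 1 to 5. The fifth, chr11:44677891-44677961, had 69 cDNAs, and 6, 22, 0, 26 and 10 in the replicates. The sixth, chr11:44719628-44719677, had 64 cDNAs, and 10, 17, 4, 22 and 11. It was the densest of the 10, with a site on 60.0% of its 50 positions.

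The other 4 leading clusters had 56 to 62 cDNAs, and in some of them 1 library or 1 nucleotide gave a large share. In chr11:44708965-44709042, 25 of the 62 cDNAs were on 1 nucleotide, and replicates 1 to 5 had 8, 8, 0, 28 and 12 cDNAs. In chr11:44671696-44671751, with 61 cDNAs, replicate 2 had 32, against 4, 0, 14 and 6 in replicates 1, 3, 4 and 5. The widest of the 10, chr11:44688652-44688763, also had 61 cDNAs, and the replicates had 1, 16, 0, 19 and 12. The last of the 10, chr11:44751867-44751940, had 56 cDNAs, and replicate 2 had 28, against 8, 3, 9 and 3 in replicates 1, 3, 4 and 5. It lies in the richest bin. The order of the clusters, the first place included, differed between libraries: replicate 2 had 32 cDNAs in chr11:44671696-44671751 and 31 in the leading cluster.

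**Figure D2:**
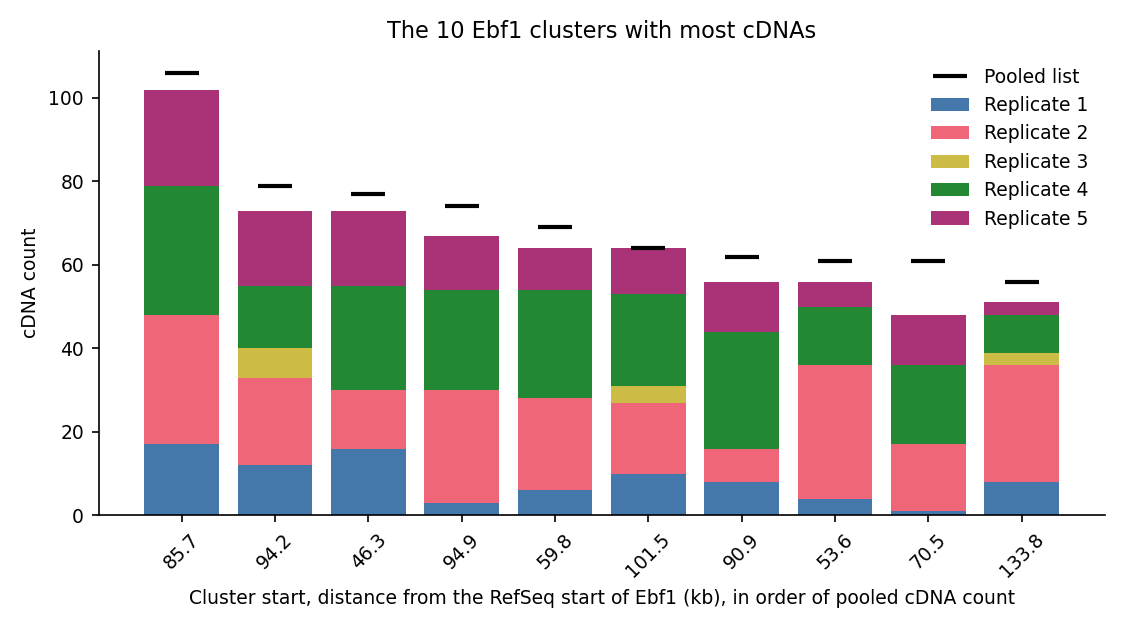
cDNA counts (vertical axis) of the 10 Ebf1 clusters with most cDNAs, ordered by pooled count and marked by the distance of their start from the gene start in kb. Stacked bars are the 5 replicate lists, counted at called sites in or within 15 nt of the cluster. Black dashes are the pooled count, which runs from 106 to 56, and replicate 3 adds to 3 of the clusters.

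The nucleotide with most cDNAs in the gene was not in a leading cluster. It was chr11:44661380, with 26 cDNAs in the pooled list and 6, 7, 0, 6 and 7 in replicates 1 to 5, and its cluster ranked 20. All replicates except replicate 3 contributed to it in near equal counts. By contrast, chr11:44709041, with 25 cDNAs, had 3, 3, 0, 13 and 5 in the replicates. Next came 3 nucleotides with 16 cDNAs, chr11:44664504 with 1, 0, 0, 9 and 6 in the replicates, chr11:44677936 with 2, 3, 0, 8 and 3, and chr11:44688822 with 1, 8, 0, 5 and 0. In each of the 3, a single library gave 8 or 9 of the cDNAs. Of the remaining 5 among the leading 10, with 12 to 15 cDNAs, chr11:44671736 had 11 of its 15 cDNAs in replicate 2, and chr11:44654620 had no site in replicates 1, 2 and 3. Replicate 3 had no called site at any of the 10 nucleotides. Replicate counts are those of called sites only, so a 0 does not show that a library had no cDNAs there. At chr11:44709041 the replicate lists summed to 24 of the 25 pooled cDNAs. With a random barcode of 4 bases, 256 molecules can be told apart at a position in a library, well above the highest Ebf1 count.

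Most sites had low counts. In the pooled list 64.7% of the Ebf1 sites had 1 cDNA, against 72.6% of all sites, and the mean was 1.78 cDNAs per Ebf1 site, against 1.77 over all sites. The share with 1 cDNA was 78.7%, 77.6%, 97.8%, 74.5% and 77.8% in replicates 1 to 5. In the pooled list 130 Ebf1 sites had at least 5 cDNAs and 18 had at least 10.

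Support was counted as the number of replicate lists with a same-strand site within 15 nt. Of the 2632 sites, 413 had support in 0 lists, 655 in 1, 524 in 2, 462 in 3, 528 in 4 and 50 in 5. Support in at least 3 lists was thus found for 1040 sites, 39.5%. The same share over all sites of the pooled list is not given here, so whether 39.5% is high or low is not known. Support in all 5 depended on the small list of replicate 3, since 530 sites, 20.1%, had support in all of replicates 1, 2, 4 and 5. The 50 sites with support in 5 lists lay in 4 clusters, with 24 sites in chr11:44719628-44719677, 13 in chr11:44751867-44751940, 10 in chr11:44712332-44712407 and 3 in chr11:44688822-44688876. By list, replicates 1 to 5 supported 1047, 1474, 154, 1518 and 1258 of the sites. In the other direction, 93.8%, 96.8%, 100.0%, 98.4% and 92.8% of the replicates' own Ebf1 sites were in the pooled list.

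Sites with more cDNAs had support in more lists. Of 1702 sites with 1 cDNA, 34.5% had support in at least 3 lists, and the share was 43.3% of 492 sites with 2 cDNAs, 48.1% of 308 with 3 to 4, 67.9% of 112 with 5 to 9 and 88.9% of 18 with 10 or more. A cDNA in the pooled count comes from a replicate library, so the measures are linked by construction. By cluster, 124 had no site in any replicate list and a median of 5 cDNAs, 118 had sites in 1 list, 51 in 2, 32 in 3, 43 in 4 and 4 in 5. Clusters with sites in 4 lists had a median of 38 cDNAs.

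**Figure D3:**
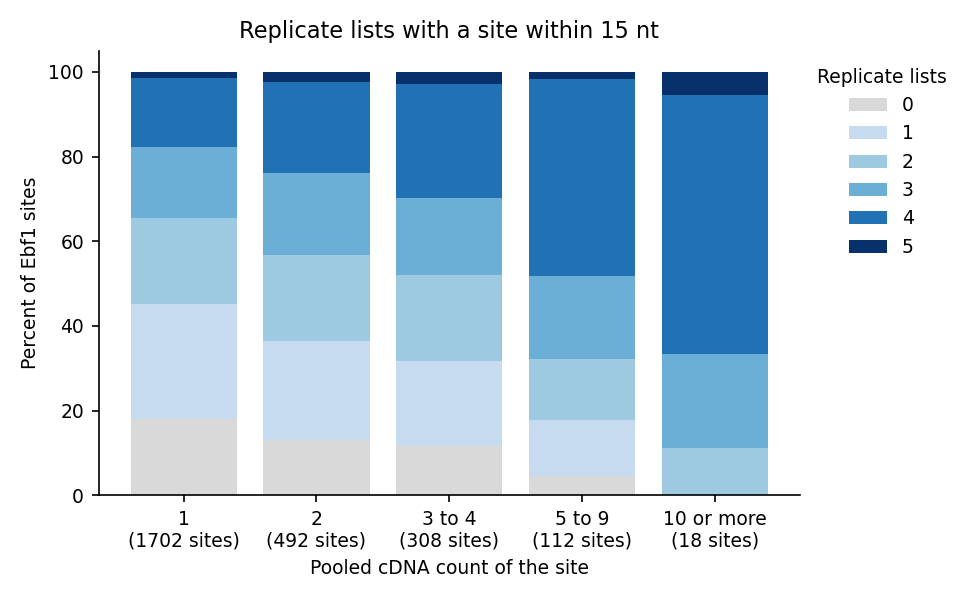
Share of the 2632 Ebf1 sites (vertical axis, percent) by the number of replicate lists, 0 to 5, with a site within 15 nt (shades), for classes of pooled cDNA count (horizontal axis). Support in at least 3 lists covers 34.5% of sites with 1 cDNA and 88.9% of the 18 sites with 10 or more.

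Ebf1 had the most sites of the 27025 RefSeq genes whose strand was known, of which 6000 had at least 1 same-strand site. It also ranked first in replicates 1, 2, 4 and 5, and second in replicate 3, where Cdk8 had 67 sites and Ebf1 45. Ebf1 was chosen with earlier results of these data known, so these ranks are descriptions and not tests. The next genes in the pooled list were Prkcb, a protein kinase C of B cell receptor signalling, with 1897 sites, the transcription factor Foxp1 with 1526, the guanine nucleotide exchange factor Dock2 with 1199 and the splicing regulator Mbnl1 with 1138. As a share of each list, Ebf1 held 2.21%, 2.35%, 0.725%, 1.56% and 2.28% in replicates 1 to 5, and Prkcb 1.3%, 1.2%, 0.274%, 0.932% and 1.02%. The Ebf1 share was higher in every list. Site number follows a transcript's abundance and length as well as binding, and RNA from the LPS-stimulated cells was not used here.

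Relative to length the order differed. At 6.75 sites per kb Ebf1 ranked 4 among 329 genes of at least 100 kb with at least 50 sites, where the other genes had a median of 0.706 and a maximum of 7.27. Mbnl1 had 7.24 sites per kb and Prkcb 5.49. The shorter gene Pou2af1, which encodes a B cell coactivator, had 20.2 sites per kb over 26.4 kb.

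Many other long genes had sites as far forward. Among the 329 long genes its median relative position of 24.2% was the 75th lowest, and the other genes had a median of 39.4% with quartiles at 27.0% and 53.9%. Prkcb had 14.2%, Dock2 42.9%, Mbnl1 38.3% and Foxp1 74.1%. In replicates 1 to 5 the Ebf1 median was 22.7%, 23.4%, 24.2%, 23.3% and 23.4%, against medians of the other long genes with at least 5 sites in that list of 33.5%, 37.9%, 43.2%, 40.1% and 40.5%. The difference was -15.7 ± 3.17 percentage points (SD, n = 5 lists) and Ebf1 was lower in 5 of 5 lists (two-sided exact sign-flip permutation p = 0.0625, the smallest that 5 lists can give). Without replicate 3 it was -14.9 percentage points and lower in 4 of 4 lists (exact permutation p = 0.125, again the smallest possible). The design cannot reach a p of 0.05 for this comparison. The test asks only whether the difference recurs across lists of the same gene, not whether Ebf1 is unusual among long genes.

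**Figure D4:**
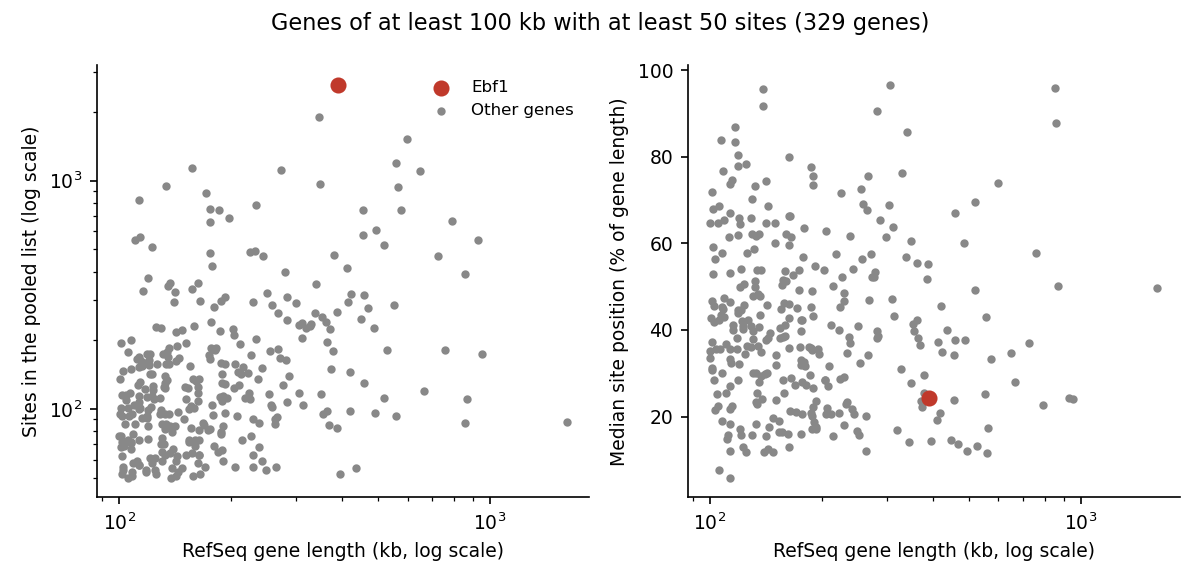
Sites in the pooled list (left, log scale) and median site position as percent of gene length (right) against RefSeq gene length in kb (log scale) for 329 genes of at least 100 kb with at least 50 sites. Ebf1 (red) has the most sites, 2632, while its median position of 24.2% lies among those of many other genes (grey).

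Other transcription factors of the B lineage also carried sites. Of 15 listed, 13 could be counted and all 13 had sites, with a median of 355, against 22.2% of all genes with any site and a median of 8 in those. The list was made of genes active in B cells. The repressor gene Bach2 had 963 sites, the zinc-finger factor gene Bcl11a 951, and Pax5, the factor that acts with EBF1 in B cell commitment, 745. Pou2af1 had 532, the Ikaros gene Ikzf1 493, Runx1 486 and Mef2c 355. Lower counts were found for Tcf12 (264), Foxo1 (232), Irf4 (91), Irf8 (83), Spib (42) and Tcf3 (37). Ebf1 had more sites than each of them, and it is also longer than each, at 390 kb. Per kb, Pou2af1 (20.2 sites), Bcl11a (9.8) and Spib (6.89) were above Ebf1 (6.75), and the rest were below it. The paralogues Ebf3 and Ebf4 had 0 sites.

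Ebf1 RNA was well above detection in every germinal centre library. It averaged 180.3 CPM (counts scaled to library size, with TMM factors) over the 16 libraries, above 92.6% of the 15789 genes tested. Its paralogues were at or near 0, since Ebf2 and Ebf3 had 0 counts in every library and Ebf4 had 2 counts in 1 DZ control library and 0 in the others. Depth was 26823882 to 34240096 counts in genes per library. Ptbp1 averaged 98.6 CPM in LZ cKO and 381.9 CPM in LZ control, and 103 CPM in DZ cKO and 443.6 CPM in DZ control. All 16 libraries expressed the B cell and germinal centre marker genes. Stromal and adipocyte cells can also express Ebf1. Of their 6 markers 2 passed the filter on low counts, Pdgfra was at 0 in every library, and the summed level was 0.396 to 3.96 CPM in LZ cKO, 0 to 2.56 CPM in LZ control, 0 to 8.25 CPM in DZ cKO and 0 to 2.24 CPM in DZ control. Of 3 macrophage and 3 T cell markers none was at 0 in a whole group, and their summed levels differed widely between libraries. For macrophage markers they were 72.8 to 407.7 CPM in LZ cKO, 22.6 to 333.5 CPM in LZ control, 36.3 to 1020.0 CPM in DZ cKO and 12.3 to 354.1 CPM in DZ control. For T cell markers they were 20.4 to 85.2 CPM in LZ cKO, 18.9 to 80.4 CPM in LZ control, 8.80 to 44.1 CPM in DZ cKO and 5.39 to 33.5 CPM in DZ control. The part of these cells in the Ebf1 level was not tested, and fewer cells of a type and less RNA per cell cannot be told apart in bulk samples.

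In the light zone, Ebf1 had 265, 175, 153 and 188 CPM in cKO libraries of sort days 1 to 4, against 264, 214, 165 and 203 CPM in control libraries. The ranges overlapped almost fully, and the day-1 library was the highest in each group. The means were 195 ± 48.5 CPM in LZ cKO and 211 ± 40.6 CPM in LZ control (SD, n = 4 each). The log2 fold change was -0.12 ± 0.21 (SE, 95% interval -0.56 to 0.33, adjusted p = 0.888, edgeR quasi-likelihood test with Benjamini-Hochberg adjustment over 15789 genes), in a comparison where 1.08% of genes were called. With sort day as a block it was -0.12 ± 0.07 (adjusted p = 0.334), in a fit where the macrophage marker Cd68 was called higher in cKO (1.21, adjusted p = 0.00582). By day, the log2 differences of cKO over control were 0.0045, -0.290, -0.112 and -0.105 on days 1 to 4. Without LZ control replicate 1 the log2 fold change was 0.01 (edgeR adjusted p = 0.993), a fit that leaves the LZ cKO library of day 1 without its same-day control. Without all libraries of day 1 it was -0.18 (edgeR adjusted p = 0.753).

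In the dark zone, cKO libraries had 182, 143, 98.4 and 129 CPM on days 1 to 4, against 220, 193, 132 and 163 CPM in control libraries. The groups overlapped, but cKO was lower on each of the 4 days, by log2 differences of -0.27, -0.43, -0.42 and -0.34. The means were 138 ± 34.6 CPM in DZ cKO and 177 ± 37.7 CPM in DZ control (SD, n = 4 each). Without the block the log2 fold change was -0.36 ± 0.21 (95% interval -0.80 to 0.09, edgeR adjusted p = 0.572), with 0.627% of genes called. With sort day as a block it was -0.37 ± 0.07 (edgeR adjusted p = 0.0112), a call where 3.27% of genes were called. In the same fit 2 of the 3 macrophage markers were called higher in DZ cKO, Lyz2 by 3.23 (edgeR adjusted p = 0.0208) and Cd68 by 1.45 (adjusted p = 0.00298), while Csf1r was 2.71 (adjusted p = 0.0712). Without the block 0 of the 3 were called, with 1 at an unadjusted p under 0.05, and their part in the Ebf1 difference was not tested. The fold change was nearly the same in both fits, and the call was made only in the fit with the block. The genotype difference in the light zone minus that in the dark zone was 0.24 ± 0.30 (edgeR adjusted p = 1), and 0.25 with the block (adjusted p = 0.84), so a difference between zones was not shown.

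Between zones, Ebf1 was higher in LZ than in DZ libraries of the same pool on all 4 days in each genotype. In cKO pools the log2 differences of LZ over DZ were 0.54, 0.29, 0.64 and 0.55 on days 1 to 4, and in control pools 0.26, 0.15, 0.32 and 0.31. The fitted difference in cKO was 0.50 ± 0.21 (95% interval 0.06 to 0.95, edgeR adjusted p = 0.16, 9.09% of genes called) and with the block 0.51 ± 0.07 (adjusted p = 0.000203, 17.3% called). In control it was 0.26 ± 0.21 (edgeR adjusted p = 0.566, 7.49% called) and with the block 0.26 ± 0.07 (adjusted p = 0.0188, 13.7% called). In that fit the T cell markers Cd3e and Cd3d were also called higher in LZ, by 1.14 and 1.35 in cKO and by 1.5 and 1.59 in control, and Cd68 by 0.62 and 0.86. Their part in the zone difference of Ebf1 was not tested. Both Ebf1 differences were called only in the fit with the block, and within each group the highest and lowest days differed by more than the zones did.

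**Figure D5:**
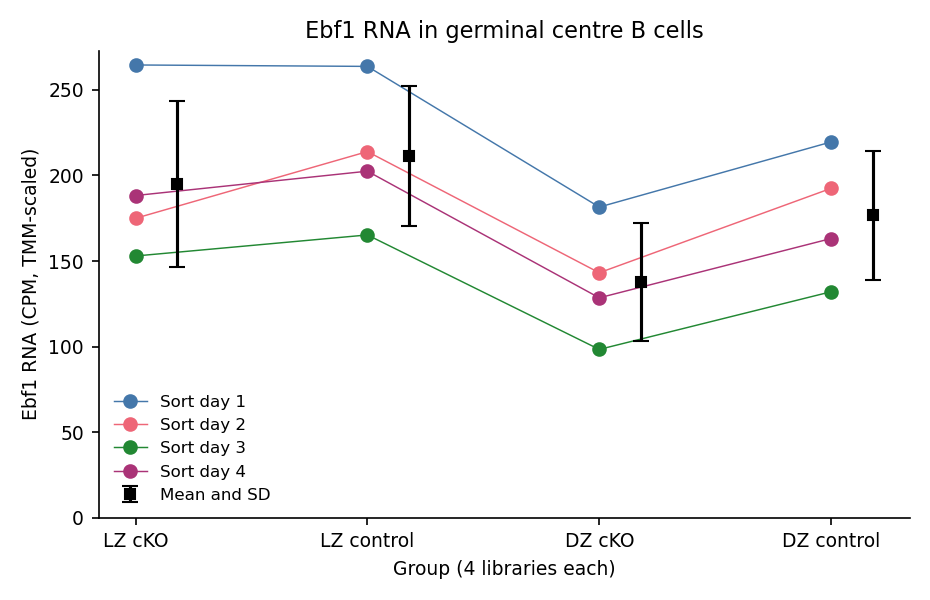
Ebf1 RNA in CPM (vertical axis) in the LZ cKO, LZ control, DZ cKO and DZ control groups; coloured points are libraries joined by sort day, and black squares with bars are means and SD of 4 libraries. Day 1 is highest and day 3 lowest in every group, and on each day DZ cKO is the lowest of the 4 libraries.

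Other B-lineage factors mostly showed small genotype differences. Of the 15, 1 was higher and 0 lower in LZ cKO, where 0.69% of all genes tested were called higher and 0.393% lower. In DZ cKO 1 was higher and 1 lower, against 0.31% and 0.317% of all genes. The higher gene was Ikzf3, encoding Aiolos, with a log2 fold change of 1.25 ± 0.08 (edgeR adjusted p = 3.65e-07) in the light zone and 1.03 ± 0.08 (adjusted p = 4.29e-06) in the dark zone. It averaged 947.2 ± 48.8 CPM in LZ cKO and 397.3 ± 28.2 CPM in LZ control (SD, n = 4 each), with no overlap. Spib, an ETS factor, was -0.32 ± 0.06 (adjusted p = 0.0345) in the dark zone, and 13 of 26 alternatives ended that call, among them leaving out LZ control replicate 4, any of DZ control replicates 2, 3 and 4, or any of DZ cKO replicates 1, 2 and 4 (highest adjusted p over all alternatives 0.342). The median log2 fold change of the list was -0.02 in the light zone and -0.01 in the dark zone, against 0.02 and 0.01 over all genes tested. With the block, Ikzf1 (0.27) and Runx1 (0.45) were called higher as well in the light zone, where 2.72% of all genes were called higher and 2.77% lower (5.5% in all), and Foxo1 (-0.31) was called lower in the dark zone, where 1.9% were called higher and 1.37% lower. The genes named from the fit with the block here and below were chosen after their values were seen.

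Among 11 genes that EBF1 is known to activate, 10 could be tested. In the light zone 0 were higher and 1 was lower in cKO, against 0.69% and 0.393% of all genes tested. In the dark zone 0 were higher and 2 lower, against 0.31% and 0.317%. Cd79a, encoding a chain of the B cell receptor complex, fell by 0.98 ± 0.13 on the log2 scale in LZ cKO (edgeR adjusted p = 0.00151) and by 1.27 ± 0.13 in DZ cKO (9.97e-05 after adjustment), but it carries the Cre insertion in cKO mice. Cr2, the complement receptor CD21, fell by 1.15 ± 0.17 in the dark zone (adjusted p = 0.00409), with 82.3 ± 25.3 CPM in DZ cKO and 183 ± 18.1 CPM in DZ control (SD, n = 4 each). Without sort day 1 or without sort day 3 the edgeR adjusted p of Cr2 was 0.0661 and 0.0627. These were among 3 of the 26 alternatives that ended this call. With the block, 1 listed gene was higher and 2 were lower in LZ cKO, Cr2 (-0.59) among the lower, against 2.72% and 2.77% of all genes. Foxo1 was the third listed gene called lower in the dark zone, where 1.37% of all genes were called lower. The list median was -0.05 in the light zone and -0.20 in the dark zone, against 0.02 and 0.01 over all genes tested.

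In the edgeR fit without the block, none of 5 genes known to be repressed by EBF1 was called in any of the 4 comparisons. At an unadjusted p under 0.05 there was 1 in the light zone genotype comparison, 2 in that of the dark zone and 0 in either zone comparison, and DESeq2 called 0 in each. With the block, Id3, an inhibitor of E proteins, was called lower in cKO in the light zone (-0.34) and the dark zone (-0.31). Of all genes, 2.77% and 1.37% were called lower there. Id2 was called higher in the dark zone (0.77), where 1.9% of all genes were called higher, Lyz2 and Cd68 among them. Tcf7 (1.18), Gata3 (1.84) and Cebpa (2.63) were above 0 there too but not called. Gata3 averaged 1.94 CPM in DZ cKO and 0.74 CPM in DZ control, and Cebpa 1.49 and 0.21 CPM. Without the block the list median was 0.34 in the light zone and 0.87 in the dark zone, against 0.02 and 0.01 over all genes tested. The part of other cells was not tested.

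More list members differed between zones, where more genes were called in general. In cKO pools 3 of the 15 factors were higher and 2 lower in LZ than in DZ, against 4.91% and 4.18% of all genes tested. In control pools the same 5 genes were called, 3 higher and 2 lower, against 4.16% and 3.33%. Bcl11a was 0.72 (edgeR adjusted p = 0.000511) in cKO and 0.54 (adjusted p = 0.00496) in control, and Irf8 was 0.37 (adjusted p = 0.00234) and 0.29 (adjusted p = 0.0122). Mef2c was 0.45 in cKO and 0.46 in control (adjusted p = 0.0138 in each). Lower in LZ were Tcf3, encoding the E2A proteins, at -0.49 (adjusted p = 0.00372) in cKO and -0.47 (adjusted p = 0.00562) in control, and Pou2af1 at -0.75 (adjusted p = 0.00359) and -0.96 (adjusted p = 0.000582). With the block 3 factors were higher and 3 lower in cKO pools (8.28% and 8.99% of all genes) and 4 higher and 5 lower in control pools (7.19% and 6.53%). Without sort day 4, Bcl11a missed the threshold in control pools (adjusted p = 0.0838), Irf8 missed it there without any 1 of the 4 days, and Mef2c missed it in both genotypes without day 2 or day 4, and in control pools also without LZ control replicate 1 (adjusted p = 0.0547). Pou2af1 missed it in cKO without day 1 (adjusted p = 0.052). The Mef2c call was ended by 3 of the 26 alternatives in each genotype.

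Of the genes activated by EBF1, 4 were higher and 1 lower in LZ of cKO pools, against 4.91% and 4.18% of all genes. In control pools 2 were higher and 1 lower, against 4.16% and 3.33%. Cr2 was 2.14 (edgeR adjusted p = 2.74e-06) in cKO and 1.56 (adjusted p = 5.05e-05) in control, and Ms4a1, encoding CD20, was 0.60 (adjusted p = 0.00112) and 0.51 (adjusted p = 0.00427). In cKO Cd79a was 0.52 (adjusted p = 0.0177), a call that 9 of the 26 alternatives ended, among them leaving out LZ cKO replicate 1 or 2 or DZ cKO replicate 3 or 4. With the block 3 were higher and 2 lower in control pools, against 7.19% and 6.53% of all genes, Foxo1 (-0.28) being added to the lower. Of the genes repressed by EBF1 that fit called Id2 (0.84) and Tcf7 (1.79), a gene of T cells, higher in LZ of control pools, where Cd3e (1.5, edgeR adjusted p = 0.00722) and Cd3d (1.59, adjusted p = 0.00428) were higher too, and the part of T cells was not tested. Without day 4, Ms4a1 missed the threshold in control pools (adjusted p = 0.0581).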

How the data were processed

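Per the submitters' processing notes, RNA reads were handled with Trim Galore 0.4.2, HISAT2 and HTSeq and iCLIP reads with Bowtie, on GRCm38. The authors deposited raw counts per Ensembl gene; lines naming no gene (41.4% to 49.8% of counts) were left out. Per the file headers, the iCLIP files hold, as a signed score, the cDNA count of positions passing an FDR of 0.05 against 100 permutations in a neighbourhood of 15 nt; the pooled file's name and description contradict each other on whether regions were treated separately.

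Genes passing edgeR's filterByExpr (minimum count 10; 15789 genes) were fitted in all 16 libraries with edgeR 4.0.16 (TMM, robust quasi-likelihood, group means; R 4.3.3). Alternatives were DESeq2 1.42.0, upper-quartile scaling, other filters, each library or sort day left out, the compared groups alone, and a block for sort day, which the labels tie to the replicate number. Deviations of same-numbered libraries correlated at 0.0944 to 0.39, and 23 of 24 correlated best with their own number. The code was tested on simulated data. Gene ranges came from RefSeq (GRCm38.p6); strand was known for genes in its promoter table. The members and gene lists were chosen with earlier results of these data known. Named were the 10 clusters and 10 sites with most cDNAs, the 5 genes with most sites, the B-lineage factors, and up to 4 called genes per list and comparison. Values of 1 listed gene are not reported here.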

Additional observations from a re-analysis of the deposited data

Results flagged for a closer look

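Of 23 sets of 4 or 5 values examined for a value far from the rest, 3 had one; chance alone gives about 1 in 20. Replicate 3 had 97.8% of its Ebf1 sites with 1 cDNA, against 74.5% to 78.7% in the other 4 lists, and this list had 45 Ebf1 sites. The same list had 6.67% of its Ebf1 sites in the last 4 of 10 equal segments of the gene, against 1.14% to 2.54% in the others, which rests on 3 sites. In the cluster of rank 10, chr11:44751867-44751940, replicate 2 had 28 cDNAs at called sites in or within 15 nt of it, against 3 to 9 in the others. Outside the gene range, the 1 kb before the RefSeq start held 31 cDNAs on the plus strand, above the 3 counts that a count of 0 allows. The reasons were not tested.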

How the results depend on the processing

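Of 129 alternative values for the 5 Ebf1 RNA comparisons, 125 kept the direction and side of the threshold. Only the fit with sort day as a replicate block uses the pairing of libraries by day, so that count mostly reflects fits without it. With the block, Ebf1 passed the threshold in DZ cKO against control (-0.37), LZ against DZ in cKO (0.51) and LZ against DZ in control (0.26). The LZ cKO against control value (-0.12) did not pass with the block. Without LZ control replicate 1 and without the block, the LZ value reversed to 0.010. Leaving out a library or a day gave -0.30 to 0.01 (LZ cKO against control), -0.52 to -0.23 (DZ), 0.32 to 0.66 (zones, cKO), 0.13 to 0.38 (zones, control) and 0.06 to 0.40 (interaction). Genes called numbered 171 (LZ) and 99 (DZ) between genotypes and 1436 (cKO) and 1183 (control) between zones, with ranges of 17 to 868, 23 to 517, 672 to 2727 and 576 to 2166; the highest came with the block and the lowest without day 4, or without day 3 for cKO zones. DESeq2 called 564, 432, 2180 and 1721.

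Requiring at least 5 or 10 cDNAs left 130 or 18 Ebf1 sites and 101 or 16 clusters, and 3 or 1 sites with support in all 5 lists. That support was found for 0 sites at the exact nucleotide, 18 within 5 nt and 123 within 50 nt; with a list left out it was 50 to 530, the highest without replicate 3. Linking at 5, 30 and 100 nt gave 855, 312 and 230 clusters, and the replicate lists alone 116, 160, 12, 156 and 152. The position difference from other long genes was -16.9 to -14.9 without each list, -18.1 against genes of at least 200 kb and -12.7 against genes with at least 200 sites, settings chosen after seeing the data. The sequencing depth of the iCLIP libraries is not known from the called sites, and RNA of the LPS-stimulated cells was not used here. Ebf1 RNA was measured in other cells than the sites.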
